A study of Homo sapiens with 8 samples.

Results

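The glycolysis and hypoxia response genes are 37 genes chosen by symbol, out of 60710 in the count table of A375 cells, an established human melanoma cell line. They are 17 enzymes of glycolysis and lactate formation, 2 enzymes that set the flux through phosphofructokinase, 4 glucose and lactate transporters, 2 kinases of pyruvate dehydrogenase, 8 targets of the hypoxia response, and 4 genes of the hypoxia-inducible factor (HIF) system. Parental A375 cells were left untreated (NT, 4 libraries) or received 50 ng/mL recombinant human TNF, an inflammatory cytokine, for 24 hours (4 libraries), in DMEM with serum. Each group has 1 library from each of 4 independent experiments, numbered here as replicates 1 to 4. It was asked which of these genes had higher or lower RNA levels in TNF-treated cells. A375 is 1 cell line from 1 tumor, 1 dose and 1 time point were used, and RNA alone was measured.

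Glycolysis splits glucose into pyruvate in the cytosol. Hexokinase traps glucose in the cell, phosphofructokinase is the main control point, and lactate dehydrogenase turns pyruvate into lactate, which leaves through monocarboxylate transporters. Many of the steps are catalyzed by isozymes, products of separate genes that differ in regulation and tissue. When oxygen is short, the alpha subunits of HIF escape prolyl hydroxylation by EGLN enzymes, pair with ARNT and switch on genes through the hypoxia response element, among them most genes of glycolysis. Melanoma cells, like many tumor cells, use glycolysis also when oxygen is present. HIF activity is set largely by the stability of its alpha subunits, which RNA levels do not show.

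The libraries held 30989787 to 44373296 counts. Levels are in CPM, that is counts scaled to a common library size with TMM factors (from a trimmed mean), and "passed" means an adjusted p under 0.05 in the quasi-likelihood test of edgeR over all 16186 genes with enough counts. As a check of the treatment, 8 of 8 known targets of NF-kB, which TNF receptors activate, rose, with a median log2 fold change of 3.30. The melanocyte lineage factor SOX10 was at 1025 CPM in NT cells and MITF at 21.0 CPM. The pigment cell genes PMEL and MLANA were at 0.458 and 0.352 CPM, and TYR, DCT and TYRP1 had too few counts to test. Of the 7 tested melanocyte and melanoma markers, 5 did not pass. S100B fell from 17.3 to 3.05 CPM (log2 fold change -2.50, adjusted p = 6.77e-06 from edgeR), and MIA rose (0.39, adjusted p = 0.0322 from edgeR). Marker lists of other cell types had low summed levels, of which 2 were higher with TNF: the 5 leukocyte markers summed to 26.9 to 34.0 CPM in NT and 43.7 to 77.1 CPM in TNF libraries (CD68 carried most of it, and PTPRC and CD3E were too low to test), and the 4 endothelial markers to 1.04 to 1.94 and 2.86 to 4.26 CPM. The 4 epithelial markers went from 16.2 to 22.4 CPM down to 8.54 to 11.9 CPM, and the 4 fibroblast markers overlapped, at 4.35 to 9.10 and 3.88 to 8.44 CPM. Within these lists single genes went both ways. CD68 rose and LYZ fell (log2 fold changes 1.26 and -0.90, adjusted p = 2.37e-04 and 0.0470 from edgeR). PECAM1 and TEK rose (2.84 and 2.08), while VWF was at -1.55 (adjusted p = 0.0514 from edgeR). KRT5 rose and KRT14 fell (3.02 and -1.12, adjusted p = 9.67e-05 and 2.57e-04 from edgeR). The fibroblast marker DCN rose 2.64-fold without overlap (adjusted p = 0.0167 from edgeR). PDGFRA, LUM and COL1A1 had negative log2 fold changes and did not pass. The part of these markers in the results below was not tested. Both libraries of replicate 4 stood apart from the rest on the second principal component (17.2% of the variance), and NT replicates 2 and 4 and TNF replicate 4 held 0.0134% to 0.0139% of their counts in ribosomal, 7SK and 7SL RNA, against 0.00254% to 0.00428% in the other 5.

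The HIF complex binds the letters ACGTG or GCGTG, the core of the hypoxia response element. These letters were searched on both strands in the 250 bases before 1 start of each gene, in RefSeq promoters on GRCh38.p14, where 33 of the 37 genes were found. The core was present in 22 of the 33 (66.7%), in 6375 of 11279 promoters of tested genes (56.5%) and in 11763 of all 27305 promoters (43.1%). Among the genes described below, 4 of the 7 matched genes that rose and 1 of 1 that fell had it. Of the other 25, 17 had it (68.0%), a set that includes CA9, which could not be tested. The promoters of 6 genes with the largest changes are shown, 5′ to 3′ on the strand of the gene and ending at the base before that start, with the core in capitals on either strand (CACGT and CACGC are the core read on the other strand, and overlapping cores form 1 run). The starts of HK2 and EGLN1 are the outer ends of the gene spans given below, whereas the windows of PFKFB4, ENO2, ANKRD37 and SLC16A3 lie inside those spans.
HK2, chr2:74833877-74834126, plus strand: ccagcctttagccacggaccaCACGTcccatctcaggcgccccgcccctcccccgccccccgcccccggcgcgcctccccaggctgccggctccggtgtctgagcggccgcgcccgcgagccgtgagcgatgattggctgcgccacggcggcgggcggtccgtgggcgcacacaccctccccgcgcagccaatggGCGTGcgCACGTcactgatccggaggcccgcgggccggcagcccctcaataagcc
PFKFB4, chr3:48556804-48557053, minus strand: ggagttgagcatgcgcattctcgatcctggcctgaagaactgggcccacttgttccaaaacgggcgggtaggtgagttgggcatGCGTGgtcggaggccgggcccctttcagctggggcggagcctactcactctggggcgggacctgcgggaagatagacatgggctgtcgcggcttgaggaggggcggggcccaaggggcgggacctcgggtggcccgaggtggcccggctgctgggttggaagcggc
ENO2, chr12:6914330-6914579, plus strand: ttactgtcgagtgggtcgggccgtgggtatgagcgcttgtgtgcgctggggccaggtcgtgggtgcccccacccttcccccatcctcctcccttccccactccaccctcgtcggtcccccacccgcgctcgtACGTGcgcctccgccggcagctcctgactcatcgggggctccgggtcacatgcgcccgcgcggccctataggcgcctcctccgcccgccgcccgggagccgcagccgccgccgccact
ANKRD37, chr4:185396591-185396840, plus strand: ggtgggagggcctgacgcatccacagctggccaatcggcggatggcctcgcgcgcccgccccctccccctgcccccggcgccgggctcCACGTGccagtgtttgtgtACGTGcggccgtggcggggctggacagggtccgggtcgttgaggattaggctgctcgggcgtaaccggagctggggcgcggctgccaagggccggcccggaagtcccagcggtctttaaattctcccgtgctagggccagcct
EGLN1, chr1:231422288-231422537, minus strand: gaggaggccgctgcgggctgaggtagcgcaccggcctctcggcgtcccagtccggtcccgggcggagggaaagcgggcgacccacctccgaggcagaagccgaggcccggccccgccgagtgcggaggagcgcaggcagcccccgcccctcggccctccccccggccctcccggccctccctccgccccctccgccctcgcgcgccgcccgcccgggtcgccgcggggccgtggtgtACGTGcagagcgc
SLC16A3, chr17:82228185-82228434, plus strand: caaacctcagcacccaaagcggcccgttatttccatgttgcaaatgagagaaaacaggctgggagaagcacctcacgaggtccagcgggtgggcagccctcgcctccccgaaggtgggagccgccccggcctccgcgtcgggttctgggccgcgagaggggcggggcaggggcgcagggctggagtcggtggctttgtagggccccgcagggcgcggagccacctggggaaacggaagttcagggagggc
HK2 and ANKRD37 each had 3 cores in this window, the palindrome in ANKRD37 being read on both strands, PFKFB4, ENO2 and EGLN1 had 1, and SLC16A3 had no match. The kappaB motif, searched by its consensus, was in 3 of the 33 promoters (9.09%), those of PFKM, ENO1 and SLC2A1, against 11.7% of promoters of tested genes and 9.57% of all promoters. These matches describe the letters only, and no binding was measured.

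Of the 37 genes, 36 had enough counts to test. TNF-treated cells had higher levels of 8 (22.2% of those tested, against 14.5% of all genes tested) and lower levels of 2 (5.56%, against 9.90% of all genes), so that 10 of 36 passed in either direction where 24.4% of all genes did. PFKFB4, SLC16A3, EGLN1, ENO2, ANKRD37, NDRG1, PKM and PFKP rose, and HK2 and SLC2A3 fell. The first 6 of the rises and the fall of HK2 were of at least 0.5 on the log2 scale, a size reached upward by 10.2% and downward by 5.65% of all genes. The median log2 fold change over the 36 was -0.0073, against -0.0035 over all genes tested, and the median absolute log2 fold change was 0.17 against 0.22. All TNF libraries lay above all NT libraries for 10 of the genes (15.6% of all genes did so) and below them for 3 (11.6%), which makes 13 without overlap where 27.3% of all genes had none. The plot of log2 fold changes by role shows these changes as single genes within each step, beside neighbors near 0.

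**Figure D1:**
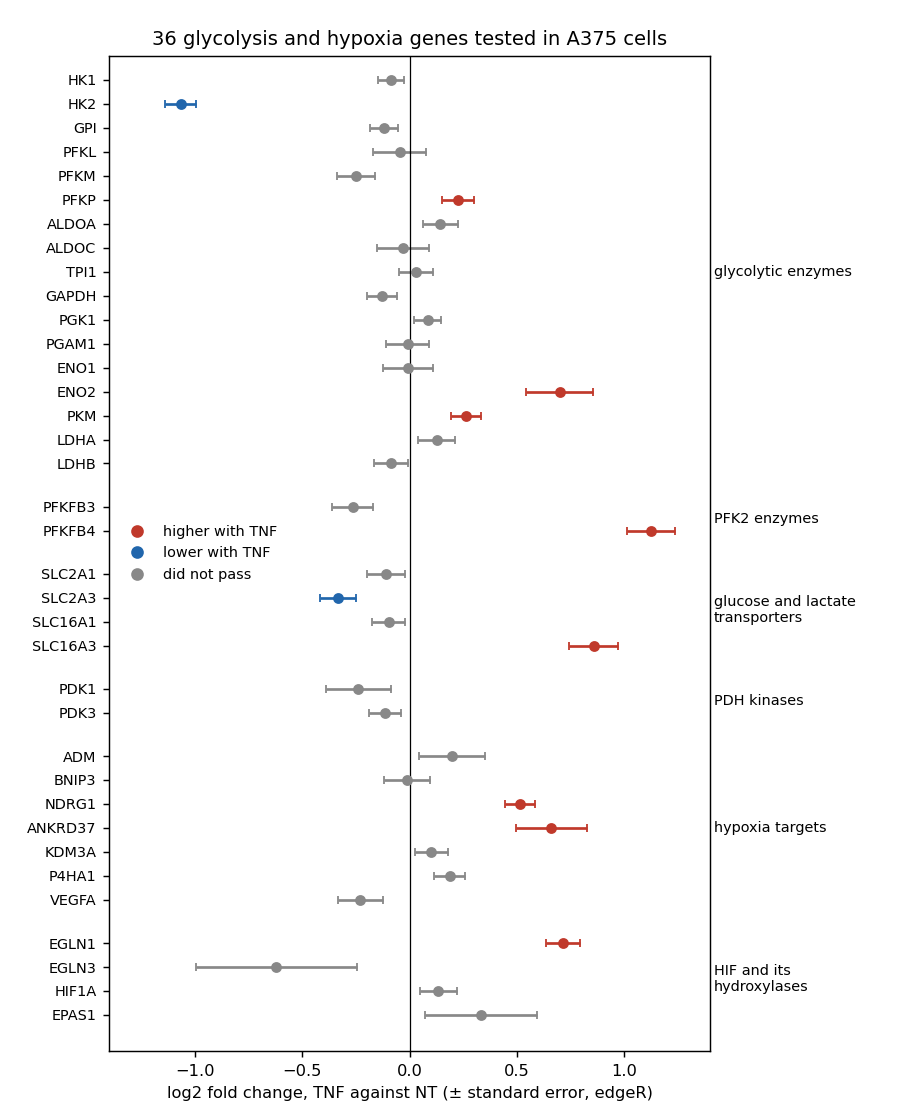
Log2 fold change (x axis, TNF against NT) of the 36 genes tested, ordered by role. Points are edgeR estimates from 4 NT and 4 TNF libraries and bars are standard errors. PFKFB4 at 1.13 and HK2 at -1.07 lie farthest from 0, and most enzymes lie within 0.30 of it.

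Which of the smaller changes passed depended on the scaling of the libraries and on the test. Against 8 higher and 2 lower (80.0% of calls higher), RLE factors in edgeR gave 7 and 2 (77.8% higher, with 14.2% of all genes higher and 10.4% lower), upper-quartile factors 7 and 4 (63.6% higher, with 12.6% and 13.6% of all genes) and library totals 7 and 8 (46.7% higher, with 11.9% and 15.5% of all genes). DESeq2, which differs in its test as well as its scaling, gave 8 and 4 (66.7% higher, with 15.6% of all genes higher and 12.2% lower). The experiments pair the libraries, and with the experiment as a replicate block 9 genes were higher (21.3% of all genes) and 5 lower (18.2%), out of 39.5% of all genes that then passed. The block added P4HA1 to the genes that were higher and PFKM, PFKFB3 and VEGFA to those that were lower. Without both libraries of replicate 4, 7 were higher and 3 lower, with 15.2% and 11.5% of all genes tested. Without the 3 libraries richest in ribosomal, 7SK and 7SL RNA, 6 were higher and 3 lower, with 12.8% and 8.33% of all genes.

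Among the 17 enzymes, 3 passed as higher (17.6%) and 1 as lower (5.88%), against 14.5% and 9.90% of all genes. The 1 that was lower is a hexokinase of the first step. HK2 (chr2:74834127-74893359), the inducible hexokinase that is abundant in tumors, was at 86.9, 93.2, 85.2 and 95.5 CPM in NT replicates 1 to 4 and at 44.7, 43.9, 44.6 and 39.0 CPM in the TNF replicates. The groups are far apart, each being tight, with the lowest TNF value in replicate 4. This is a log2 difference of -1.07 (SE 0.07, adjusted p = 3.58e-06 from edgeR), a 2.09-fold lower level. HK1, the hexokinase most tissues share, ran from 227 to 248 CPM in NT and from 221 to 228 CPM in TNF libraries, with an edgeR log2 fold change of -0.09 (adjusted p = 0.361).

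In the middle of the pathway the changes were small. PFKP, the platelet-type subunit of phosphofructokinase, ran from 163 to 190 CPM in NT and from 198 to 227 CPM in TNF libraries, a log2 fold change of 0.23 (SE 0.07, adjusted p = 0.0466 from edgeR). That call ended in 13 of 19 alternative fits, at an adjusted p of 0.0533 to 0.225, including every fit that left out 1 library other than TNF replicate 4. The muscle-type subunit PFKM was at -0.25 (adjusted p = 0.0657 from edgeR, 0.00361 with the replicate block), and it passed as lower in 7 of the 19. The liver-type subunit PFKL was at -0.05. GPI, which isomerizes glucose phosphate, was at -0.12, the aldolases ALDOA and ALDOC at 0.14 and -0.03, and TPI1, which interconverts the trioses, at 0.03 on the log2 scale. GPI passed as lower with library totals alone, at an adjusted p of 0.0217.

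GAPDH, the dehydrogenase often used as a reference gene, was at 8092, 8358, 7827 and 7586 CPM in NT and 7506, 7089, 7001 and 7581 CPM in TNF libraries. Every TNF library was below every NT library, the nearest being the NT and TNF libraries of replicate 4, a few CPM apart. Its log2 difference of -0.13 (SE 0.07) did not pass (adjusted p = 0.230 from edgeR), although it did with library totals (0.0287). PGK1, the first enzyme that makes ATP in the pathway, was above NT in all TNF libraries by a narrow margin, 576 to 605 against 529 to 576 CPM, at an edgeR log2 fold change of 0.08 (adjusted p = 0.394). PGAM1, the phosphoglycerate mutase, was at -0.01.

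At the end of the pathway 2 enzymes rose. ENO2 (chr12:6913745-6923698), the enolase typical of neurons and neuroendocrine cells, was at 38.2, 41.6, 33.1 and 49.4 CPM in NT and 61.4, 65.1, 52.6 and 84.5 CPM in TNF libraries. Replicate 4 was the highest and replicate 3 the lowest in both groups, and the groups did not overlap. The rise was 0.70 on the log2 scale (SE 0.16, adjusted p = 0.00792 from edgeR). ENO1, the common enolase, stayed between 4853 and 5323 CPM in NT and 4301 and 6342 CPM in TNF libraries, at a log2 fold change of -0.01. PKM, the pyruvate kinase of most tissues, ran from 3605 to 3983 CPM in NT and from 4242 to 4672 CPM in TNF libraries, a log2 fold change of 0.26 (SE 0.07, adjusted p = 0.0185 from edgeR). The PKM call ended with no filter on low counts and without NT replicate 1, 3 or 4 or TNF replicate 2, at an adjusted p of 0.0529 to 0.0652. Gene counts do not separate the splice forms of PKM. The lactate dehydrogenase subunits LDHA and LDHB were at 0.13 (adjusted p = 0.345) and -0.09 (adjusted p = 0.504 from edgeR).

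The bifunctional enzymes PFKFB3 and PFKFB4 make and remove the sugar bisphosphate that activates phosphofructokinase. PFKFB4 (chr3:48517684-48562015) had the largest rise of the 37 genes, from 31.2, 27.1, 29.6 and 25.4 CPM in NT to 71.0, 57.1, 67.5 and 51.7 CPM in TNF libraries. The lowest TNF library, replicate 4, was still above the highest NT library, and in both groups replicates 1 and 3 were the highest. PFKFB4 was thus higher by 1.13 on the log2 scale (SE 0.11, adjusted p = 4.34e-05 from edgeR), or 2.18-fold. UCN2, which encodes a peptide hormone, lies on the same strand and shares 298 exonic bases with annotated transcripts of PFKFB4, though 0 with its canonical transcript, and rose 5.51-fold (log2 fold change 2.46, adjusted p = 6.53e-06 from edgeR), with 179% of the counts of PFKFB4. UCN2 went from 18.9 to 31.0 CPM in NT to 110 to 172 CPM in TNF libraries, and its part in the rise of PFKFB4 was not tested. PFKFB3, the isozyme better known from inflammation and proliferation, was at -0.27 (SE 0.10, adjusted p = 0.0728 from edgeR, 0.00661 with the replicate block). It passed as lower in 5 of 19 alternative fits, among them those with DESeq2, with library totals and without NT replicate 3.

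Of the transporters, an exporter rose and an importer fell. SLC16A3 (MCT4, chr17:82217934-82261129), which exports lactate from highly glycolytic cells, was at 25.4, 24.3, 25.8 and 20.9 CPM in NT and 50.3, 43.9, 45.6 and 35.0 CPM in TNF libraries. Replicate 4 was the lowest in both groups and the groups did not overlap. The difference was 0.86 on the log2 scale (SE 0.12, adjusted p = 3.22e-04 from edgeR). CSNK1D, on the opposite strand, shares 482 exonic bases with SLC16A3, all in the canonical transcript of SLC16A3. CSNK1D held 273% of the counts of SLC16A3 and had a log2 fold change of 0.01. Its part in the counts of SLC16A3 was not tested. SLC16A1 (MCT1), which carries lactate both ways, was at -0.10 (adjusted p = 0.415 from edgeR) and passed as lower with library totals (0.0466).

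SLC2A3 (GLUT3, chr12:7919230-8019007), a high-affinity glucose importer, ran from 28.9 to 36.0 CPM in NT and from 24.2 to 25.7 CPM in TNF libraries, without overlap. Its log2 fold change of -0.33 (SE 0.08, adjusted p = 0.0150 from edgeR) passed in all 19 alternative fits. SLC2A1 (GLUT1), the main glucose importer of most tumor cells and a classic HIF target, was at 256, 278, 301 and 330 CPM in NT and 282, 247, 276 and 274 CPM in TNF libraries. The groups overlapped, and only in replicate 1 was TNF higher. Its log2 fold change was -0.11 (SE 0.09, adjusted p = 0.420 from edgeR).

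PDK1 and PDK3 phosphorylate pyruvate dehydrogenase and so keep pyruvate out of the mitochondria. Both were low, at 8.44 to 12.4 and 19.7 to 21.4 CPM in NT libraries, and had log2 fold changes of -0.24 (adjusted p = 0.309) and -0.12 (adjusted p = 0.312 from edgeR), with overlap between the groups in each.

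**Figure D2:**
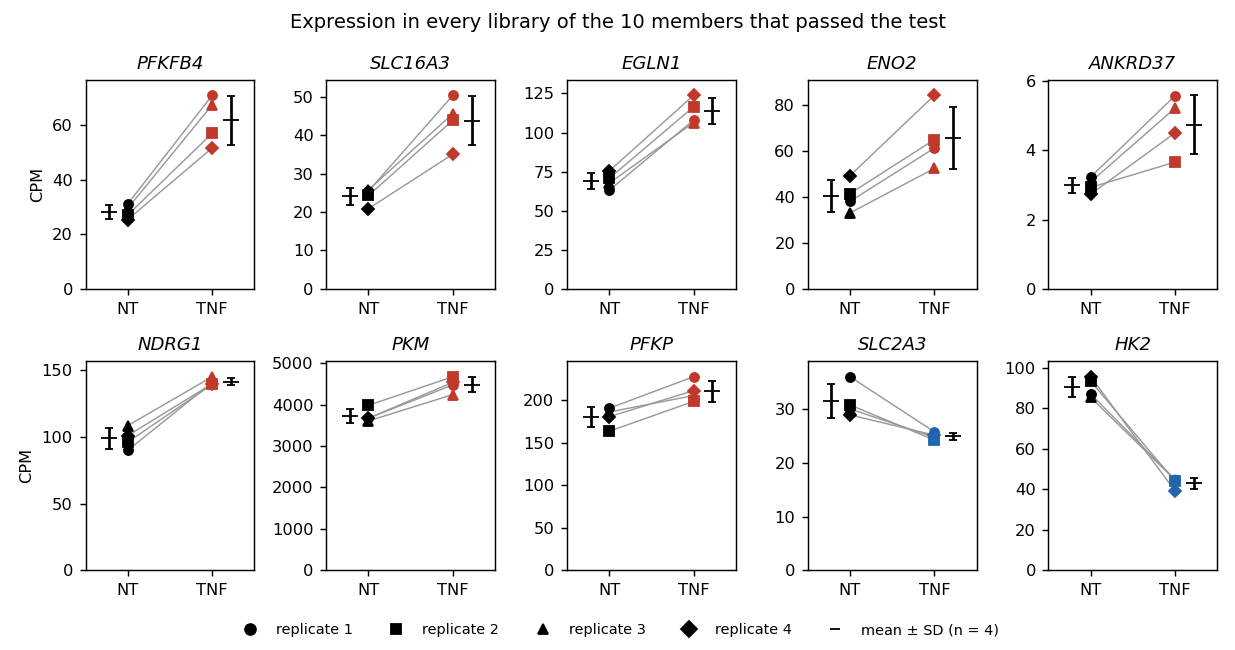
CPM (y axes, from 0) of the 10 genes that passed, in the 4 NT and 4 TNF libraries. Lines join the libraries of 1 experiment, marker shapes are the replicates, and bars are the mean ± SD (n = 4). In each panel the groups do not overlap, and HK2 went from 90.2 ± 4.91 to 43.1 ± 2.71 CPM.

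Of the 8 hypoxia targets, 2 rose (28.6% of the 7 tested, against 14.5% of all genes), 5 did not pass and 1 could not be tested. NDRG1, a stress-responsive gene linked to growth arrest and metastasis suppression, was at 90.0, 96.1, 108 and 101 CPM in NT and 141, 139, 145 and 140 CPM in TNF libraries. The TNF libraries were within a few CPM of each other and all above NT. NDRG1 rose by 0.52 on the log2 scale (SE 0.07, adjusted p = 3.94e-04 from edgeR). ANKRD37 (chr4:185396021-185400628), a small ankyrin-repeat protein gene and a sensitive HIF target, was at 3.23, 2.92, 3.08 and 2.73 CPM in NT and 5.57, 3.65, 5.21 and 4.50 CPM in TNF libraries. The groups did not overlap, with TNF replicate 2 nearest to NT. ANKRD37 rose by 0.66 on the log2 scale (SE 0.17, adjusted p = 0.0141 from edgeR), and the call ended without the 3 libraries richest in ribosomal, 7SK and 7SL RNA (adjusted p = 0.0803). UFSP2, on the opposite strand, shares 909 exonic bases with ANKRD37 and held 591% of its counts, with a log2 fold change of -0.14. Of the 784 bases of the canonical ANKRD37 transcript, 429 are shared. The part of UFSP2 in the counts of ANKRD37 was not tested.

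VEGFA, the angiogenic growth factor, was at 31.9, 29.1, 28.1 and 38.0 CPM in NT and 27.0, 24.5, 28.4 and 28.5 CPM in TNF libraries. TNF replicate 3 was the single one above its own NT library, and the groups overlapped. The log2 fold change was -0.23 (SE 0.10, adjusted p = 0.144 from edgeR), and it passed as lower with the replicate block (0.0343) and with library totals (0.0475). P4HA1, a collagen prolyl hydroxylase, was above NT in all TNF libraries, 38.0 to 41.3 against 31.8 to 36.7 CPM, at an edgeR log2 fold change of 0.19 (adjusted p = 0.0907, 0.0194 with the replicate block). The vasodilator peptide gene ADM was at 0.20, the mitophagy gene BNIP3 at -0.01, and the histone demethylase gene KDM3A at 0.10. CA9, the carbonic anhydrase that marks hypoxic tumor cells, was barely detected, with 8, 10, 1 and 9 counts in NT and 0, 2, 0 and 4 counts in TNF libraries. It failed the filter on low counts. Tested with no filter, its log2 fold change was -2.04 (SE 0.87, adjusted p = 0.150 from edgeR). This is a difference of 28 against 6 counts that this depth could not settle. ARHGEF39, on the opposite strand, shares 571 exonic bases with CA9 and held 14271% of its counts, with a log2 fold change of 0.17. The part of ARHGEF39 in the counts of CA9 was not tested.

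Within the HIF system, the oxygen sensor EGLN1 changed. EGLN1 (PHD2, chr1:231363751-231422287), the main prolyl hydroxylase that marks HIF alpha subunits for degradation, was at 63.1, 70.7, 67.6 and 75.4 CPM in NT and 108, 117, 106 and 124 CPM in TNF libraries. The groups are wide apart, and replicate 4 was the highest of each. EGLN1 rose by 0.72 on the log2 scale (SE 0.08, adjusted p = 9.12e-05 from edgeR), or 1.64-fold. EGLN3 (PHD3), a hydroxylase strongly induced in hypoxia, was close to the limit of detection, at 0.641 to 0.874 CPM in NT and 0.226 to 0.798 CPM in TNF libraries. It was lower than its own NT library in each of the 4 TNF libraries, at a log2 fold change of -0.62 (SE 0.38, adjusted p = 0.278 from edgeR).

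The alpha subunits did not pass. HIF1A was at 235, 218, 236 and 214 CPM in NT and 259, 249, 271 and 212 CPM in TNF libraries. TNF replicates 1 to 3 were above all NT libraries and replicate 4 was below them. The log2 fold change was 0.13 (SE 0.09, adjusted p = 0.302 from edgeR), and without TNF replicate 4 it passed (adjusted p = 0.0403). EPAS1, which encodes HIF2 alpha, was at 2.03, 1.78, 1.38 and 1.75 CPM in NT and 2.24, 2.09, 3.10 and 1.29 CPM in TNF libraries. These overlap, with TNF replicate 3 the highest and TNF replicate 4 the lowest of all. For EPAS1 the log2 fold change was 0.33 (SE 0.26, adjusted p = 0.407 from edgeR). In bulk RNA of this kind, fewer cells that express a gene and less RNA per cell cannot be told apart.

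The balance between isozymes was compared as the log2 ratio of the CPM of 2 genes within a library, which does not depend on how libraries are scaled. With 12 pairs and 4 libraries a group, an exact two-sided permutation test over 70 assignments can reach p = 0.0286 at the least. In 7 pairs the groups did not overlap and the test gave that smallest value (adjusted p = 0.0490 over the 12 pairs). This adjusted value is under 0.05 only because the 7 reached the smallest p together, so no pair passes by itself. Except for LDHA over LDHB, each of the 7 holds a gene that passed alone, so its ratio is not separate evidence. HK1 over HK2 went from 1.39 ± 0.10 to 2.37 ± 0.11 (SD, n = 4), a shift of 0.98 toward HK1. PFKFB3 over PFKFB4 went from 1.66 ± 0.23 to 0.28 ± 0.30, a shift of -1.38 toward PFKFB4, to which the overlap of PFKFB4 with UCN2 applies. SLC16A1 over SLC16A3 went from 2.99 ± 0.22 to 2.04 ± 0.32, a shift of -0.95 toward the exporter SLC16A3.

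ENO1 over ENO2 shifted by -0.71 toward ENO2, from 6.98 ± 0.18 to 6.26 ± 0.07, so that ENO1 remained by far the more abundant. PFKP over PFKM shifted by 0.47 and LDHA over LDHB by 0.21, both toward the first gene, although neither LDH gene passed alone. EGLN1 over EGLN3 shifted by 1.43, with an SD of 0.78 among the TNF libraries, in which EGLN3 was under 1 CPM. For PFKP over PFKL (0.26), SLC2A1 over SLC2A3 (0.22), ALDOA over ALDOC (0.16), PDK1 over PDK3 (-0.12) and HIF1A over EPAS1 (-0.14) the adjusted p was 0.129 to 0.486, all from the exact permutation test. The plot of ratios shows the shifts library by library.

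**Figure D3:**
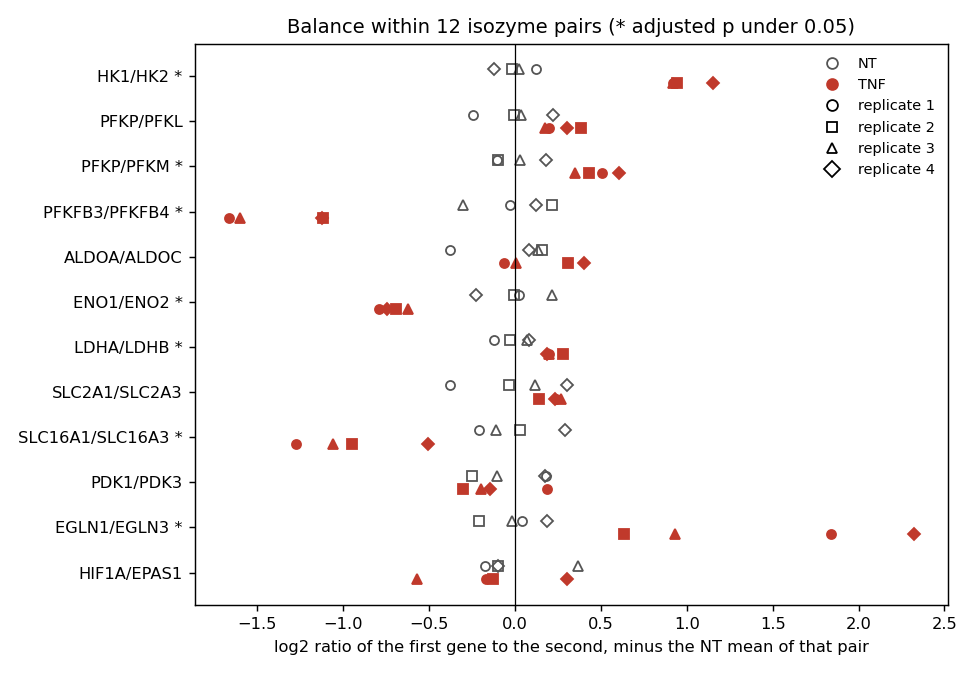
Log2 ratio of 2 isozymes in each library, minus the NT mean of that pair (x axis), for 12 pairs. Open symbols are NT and filled ones TNF, shapes are the replicates, and an asterisk marks an adjusted p of 0.0490 from the exact permutation test. The TNF libraries lie to the right for HK1/HK2, by 0.98 on average, and to the left for PFKFB3/PFKFB4, by a mean of -1.38.

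Levels of different genes were compared as CPM per kilobase of merged exons. In NT cells GAPDH stood highest at 3325 ± 139, followed by ENO1 at 972 ± 44.7, ALDOA at 555 ± 26.3, PKM at 435 ± 19.8 and TPI1 at 393 ± 7.91 CPM per kilobase (SD, n = 4), steps that are larger than the spread. The order of ALDOA and PKM depends on the length used, since over the longest transcripts PKM was at 1238 ± 56.2 and ALDOA at 839 ± 39.8. With merged exons LDHB at 268 ± 8.91 and PGAM1 at 251 ± 15.0 lay within their spread of each other, as did HIF1A at 43.8 ± 2.26 and SLC2A1 at 44.0 ± 4.82. Over the longest transcripts both pairs were apart, LDHB at 520.1 ± 17.3 and PGAM1 at 354 ± 21.1, and SLC2A1 at 86.1 ± 9.43 and HIF1A at 57.1 ± 2.94. Over merged exons, HK1 at 34.4 ± 1.42 was above HK2 at 15.2 ± 0.83. The lowest were PDK1 at 0.715 ± 0.12, EPAS1 at 0.238 ± 0.04 and EGLN3 at 0.0997 ± 0.01.

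With TNF, HK2 dropped to 7.27 ± 0.46 CPM per kilobase, and HK1 went from 69.3% to 81.7% of the summed level of the pair while its own level did not pass. PFKFB3 went from 75.8% to 54.7% of its pair and SLC16A1 from 92.0% to 85.5%. Over the length of canonical transcripts, a choice added after the data were seen, PFKFB3 went from 71.0% to 48.6%, so which isozyme was the more abundant with TNF depends on the length used. The same holds for LDHA and LDHB. The 17 enzymes together took 2.46% to 2.63% of all counts in NT and 2.31% to 2.55% in TNF libraries, ranges that overlap, and all 37 genes took 2.59% to 2.76% and 2.45% to 2.67%. In the plot of levels the highest genes, which carry this share, lie near the line of equal levels.

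**Figure D4:**
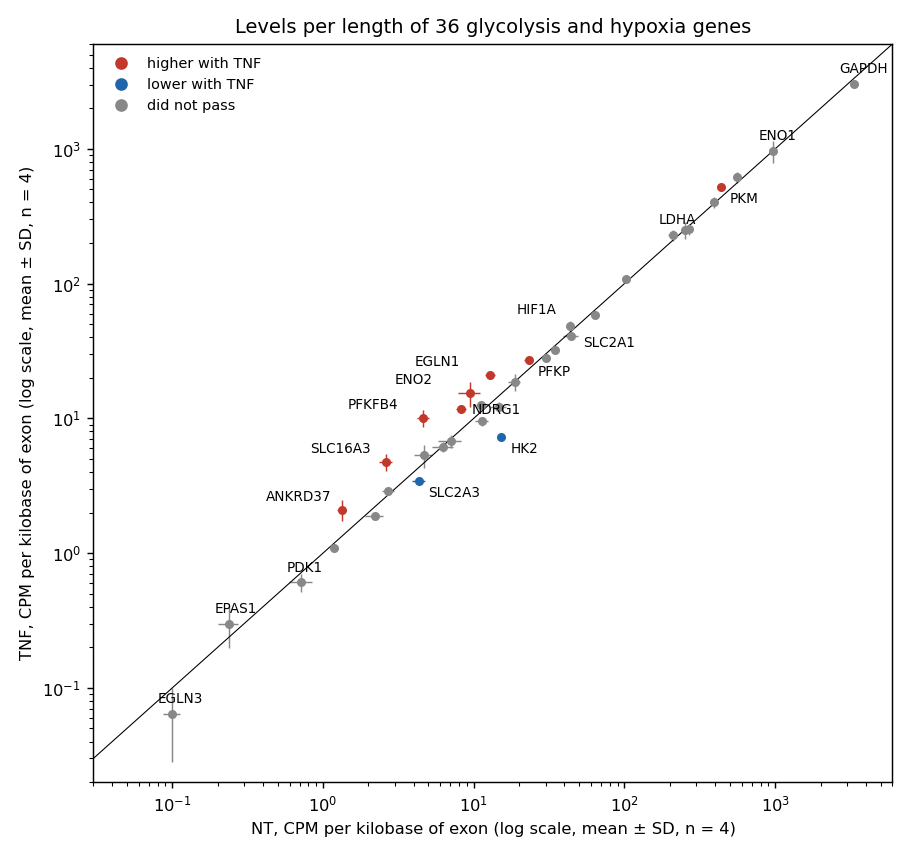
CPM per kilobase of merged exons in NT (x axis) and TNF (y axis) for the 36 genes tested, both axes logarithmic, with mean ± SD (n = 4). The line marks equal levels. Genes that rose lie above the line between ANKRD37 (1.33 to 2.10) and PKM (435 to 523), and HK2 (15.2 to 7.27) lies farthest below it.

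Further lists of the same pathways were read against the same shares of all genes, 14.5% higher and 9.90% lower. Of 21 tested genes outside the 37, listed for glycolysis, related transporters and glycogen entry, 3 rose and 3 fell. The rises were large and were those of the transporters SLC2A6 and SLC2A13 and of BPGM. SLC2A6, a hexose transporter of lysosomal membranes, went from 6.85 to 10.5 CPM in NT to 43.9 to 51.9 CPM in TNF libraries (log2 fold change 2.51, SE 0.15, adjusted p = 1.07e-06 from edgeR), SLC2A13, a myoinositol transporter, was higher by 1.83, and BPGM, which makes the bisphosphoglycerate of red cells, by 1.07. PYGL, the liver glycogen phosphorylase, was lower by -0.30 (adjusted p = 0.0468 from edgeR), a call that ended in 9 of 19 alternative fits. The count of 3 lower went to 0 or 1 when any 1 library other than NT replicate 3 or TNF replicate 1 was left out.

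In the pentose phosphate pathway, which branches off after hexokinase, 1 of 7 tested genes rose and 2 fell. The isomerase RPIA and the epimerase RPE were lower, with log2 fold changes of -0.44 and -0.30 (adjusted p = 0.00242 and 0.00978 from edgeR). The transaldolase TALDO1 was higher, at 0.43 (adjusted p = 0.0260 from edgeR), which ended without NT replicate 1, 2 or 3 (adjusted p = 0.0643 to 0.0724). Of 14 genes for the entry of pyruvate into mitochondria, 2 fell and 12 did not pass. PDK4, another kinase that shuts pyruvate dehydrogenase, was at 14.0, 13.0, 11.4 and 9.08 CPM in NT and 4.85, 3.29, 5.35 and 2.43 CPM in TNF libraries. No TNF library reached the NT range, and the log2 fold change was -1.57 (SE 0.24, adjusted p = 7.53e-04 from edgeR). DLAT, a subunit of pyruvate dehydrogenase, was at -0.24 (adjusted p = 0.0295 from edgeR), which ended in 6 of 19 alternatives, 5 of them fits without NT replicate 1, 2 or 3 or TNF replicate 1 or 2.

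In the HIF machinery, 2 of 12 tested genes rose and 10 did not pass. ARNT, the partner of the alpha subunits, was at 25.3 to 31.7 CPM in NT and 32.1 to 43.5 CPM in TNF libraries (log2 fold change 0.42, SE 0.11, adjusted p = 0.0207 from edgeR). The ARNT call ended in 6 of 19 alternatives, among them the fits without NT replicate 2 or 4 or TNF replicate 1 or 3 (adjusted p = 0.0577 to 0.0840 over the 6). CUL2, the scaffold of the ligase that degrades HIF alpha subunits, was higher by 0.29 on the log2 scale (adjusted p = 0.00740 from edgeR), which was lost with library totals (0.0507).

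Of 38 tested hypoxia response genes beyond the 37, 13 rose (34.2%) and 5 fell (13.2%), with a median log2 fold change of 0.18. The 5 include HK2-DT, the neighbor of HK2 given below. This list was chosen with earlier results of these data known, so its shares cannot serve as a test of a hypoxia response. STC1, a secreted glycoprotein hormone, was at 2.01, 1.15, 1.42 and 1.46 CPM in NT and 17.4, 12.5, 17.2 and 16.7 CPM in TNF libraries, a log2 fold change of 3.39 (SE 0.19, adjusted p = 7.60e-07 from edgeR). CA12, a carbonic anhydrase of the cell surface like CA9, rose from 0.164 to 0.278 CPM to 0.832 to 1.07 CPM (log2 fold change 2.13, adjusted p = 2.41e-04 from edgeR).

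PPFIA4, a liprin gene, was lower, at -1.47 (SE 0.28, adjusted p = 0.00326 from edgeR). HK2-DT, the transcript that starts divergently beside HK2 and was named after its values were seen, was at 5.49, 4.95, 4.56 and 4.19 CPM in NT and 2.64, 2.18, 3.27 and 1.91 CPM in TNF libraries. It fell without overlap, like its neighbor, with a log2 fold change of -0.94 (SE 0.19, adjusted p = 0.00466 from edgeR). STC2 (1.44) and the collagen hydroxylase P4HA2 (1.07), also named after their values were seen, were higher, while its relative P4HA1 did not pass. The other falls of the list were MXI1 (-0.65), SLC6A8 (-0.49) and ZNF395 (-0.39), each without overlap (adjusted p = 0.00794, 0.00139 and 0.00144 from edgeR). The count of 13 dropped to 8 without NT replicate 2 or without TNF replicate 1, and the count of 5 held with any 1 library left out. The plot of the further hypoxia genes gives the estimates.

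**Figure D5:**
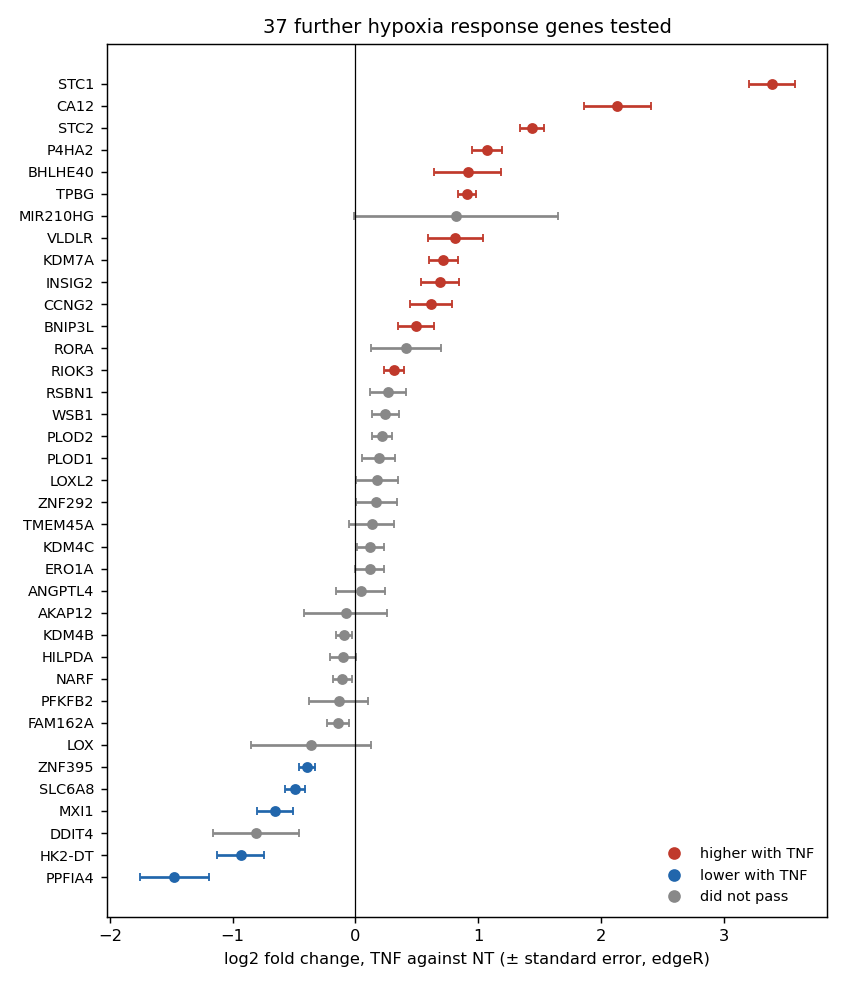
Log2 fold change (x axis, TNF against NT, edgeR, bars are standard errors) of 37 of the 38 hypoxia response genes tested outside the 37 described above, sorted by value. Of those plotted, 12 were higher, led by STC1 at 3.39, and 5 were lower, led by PPFIA4 at -1.47.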

How the data were processed

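Polyadenylated RNA of A375 cells was sequenced from stranded libraries. Alignment by the authors used bowtie2 (version not given in the sources used here) and the GRCh38 transcriptome, and RSEM 1.2.25 gave one estimated count for each gene and library. The deposited values are these expected counts, not normalized, one column per library. The strand setting of the counting is not given in the sources used here, so reads of overlapping genes on opposite strands may not be separated. Treatment came from the sample labels and replicate numbers from the experiment date in the titles. The count files of the single NT records each hold the NT library of another date, so columns of the series table, whose names match the titles, were used.

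Counts were rounded (a change of 4.10e-05% of the total), and 16186 of 60710 genes passed edgeR's low-count filter (minimum 10, total 15). Counts were scaled by TMM and tested with edgeR 4.0.16 (robust quasi-likelihood, treatment as the only term) in R 4.3.3, adjusting p-values across every tested gene by Benjamini-Hochberg (threshold 0.05). CPM used TMM factors, log2 ratios a prior count of 2. Every pair of libraries in a group differed by more than counting noise (chi-square per degree of freedom at least 12.0). Same-numbered libraries deviated together (r = 0.35, 0.17, 0.24 and 0.46 over 16186 genes), so numbers pair libraries. The libraries come from 4 independent experiments on 1 line, and p-values measure the spread between those. Exon lengths and positions come from GENCODE release 44, which the files do not name, and promoters from RefSeq.

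Named with full values were genes past the threshold with an absolute log2 fold change of at least 0.5, and HIF1A, EPAS1, GAPDH, VEGFA, CA9 and SLC2A1. From each further list up to 4 genes past the threshold with the largest change were named, and some genes of these lists are not reported here. Members and lists were chosen with earlier results of these data known. Alternatives were limma 3.58.1 (voom), DESeq2 1.42.0, scaling by upper quartiles, by RLE or by library totals alone, dropping the low-count filter or asking for 10 counts in each library, the replicate block, libraries left out, pseudogene counts added, a threshold of 0.01, other lengths and a prior count of 0.5. Scripts were tested on simulated counts.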

Additional observations from a re-analysis of the deposited data

Results flagged for a closer look

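Dixon's test was run on 102 groups of 4 libraries, from each tested member and each further gene named by the rule above, by treatment. In 7 of them a library was far from the other 3 at the 95% level, where chance alone gives about 5.1. In log2 CPM, TNF replicate 4 was at 5.29 for HK2 (others 5.46 to 5.49), at 7.83 for HK1 (others within 0.01 of 7.79) and at 5.74 for CUL2 (others 5.84 to 5.85). TNF replicate 1 was at 3.48 for PDK1 (others 3.05 to 3.08), and TNF replicate 2 at 3.65 for STC1 (others 4.07 to 4.12). NT replicate 4 was at 5.35 for KDM3A (others 5.10 to 5.12), and NT replicate 2 at 3.04 for SLC2A13 (others 3.21 to 3.25).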

How the results depend on the processing

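Across 19 alternative fits the calls of HK2, SLC2A3, PFKFB4, SLC16A3, EGLN1, ENO2 and NDRG1 held. Changed calls of other members and of further genes named by the rule stand beside them above. At a threshold of 0.01, 5 members were higher and 1 lower, 1548 and 772 of all genes, 8 further hypoxia genes higher, 1 of the HIF machinery and 0 of the pentose phosphate pathway higher, and 0 of other glycolysis and 1 of pyruvate entry lower. Members lower were 4 with DESeq2 and with upper-quartile factors, 8 with library totals and 5 with the replicate block. All genes lower were 2514 with library totals and 2945 with the block. HIF machinery genes higher were 1 with upper-quartile factors, 0 with library totals and 4 with the block, which also gave 2 pentose phosphate genes higher. Other glycolysis genes lower were 6 with library totals, 1 without replicate 4 of both groups and 0 without the 3 libraries richest in ribosomal, 7SK and 7SL RNA, and pyruvate entry genes lower were 1 with no filter. TPI1, near 0, turned to -0.030 with upper-quartile factors, -0.056 with library totals, -0.037 without replicate 4 of both groups and -0.013 without the 3 libraries. With 1 library left out in turn, members higher were 6 to 9 and lower 2 to 3. All genes higher were then 1884 to 2521 and lower 1107 to 1896. Further hypoxia genes higher were 8 to 14, HIF machinery higher 1 to 3 and pentose phosphate higher 0 to 2. Other glycolysis genes lower were 0 to 3 and pyruvate entry lower 1 to 3. Log2 fold changes then ran from -0.12 to 0.075 for PFKL, -0.093 to 0.084 for ALDOC, -0.036 to 0.068 for TPI1, -0.11 to 0.043 for PGAM1, -0.13 to 0.064 for ENO1 and -0.11 to 0.038 for BNIP3. The causes were not tested. The 7 isozyme ratios past the threshold kept their direction, but the sign-flip test of 4 pairs cannot go below 0.125, nor 3 against 4 libraries below 0.0571. The replicate block changed no call of a member, or of a further gene named by the rule, other than those given above. Pseudogenes named for the members held at most 1.29% of a member's counts. Depth limits CA9, with 28 counts in all NT and 6 in all TNF libraries.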
